A study of Hydra vulgaris with 12 samples.

Results

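This section describes 18 transcripts of the freshwater polyp Hydra vulgaris, strain AEP, that carried PIWI-bound small RNA on both strands and were also abundant as mRNA. They were chosen by their piRNA and mRNA levels out of 38747 transcripts, on CPM, the counts of each column scaled to a total of 1000000. A transcript needed at least 10 CPM of antisense RNA bound by the PIWI protein Hywi and at least 10 CPM of sense RNA bound by the PIWI protein Hyli. Both had to hold in colchicine-treated and in wild-type animals, with a difference under 4-fold between the 2 kinds of animal for each protein. The transcript also needed a mean of at least 20 CPM in the mRNA libraries of wild-type siblings. Up to 200 transcripts were to be kept in the order of their smallest piRNA value, and 18 met all conditions.

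PIWI proteins carry piRNAs, short guide RNAs that lead them to matching transcripts, and are best known for holding transposons in check in the germ line. In Hydra they are also present in somatic stem cells. In the ping-pong cycle, known best from flies, a PIWI protein loaded with an antisense piRNA cuts the sense transcript, and a piece of the cut RNA becomes a sense piRNA bound by a partner PIWI protein. The partner then cuts antisense precursors and so renews the antisense piRNAs. The cut leaves a 3' piece of the target without a cap, which degradome sequencing can read from its 5' end. The overlap between the ends of sense and antisense piRNAs, by which ping-pong is usually recognised, cannot be read from counts per transcript. The names of these transcripts were not paired with gene names, so no role is given to any of them, and their sequences and lengths were not used here. For that reason CPM values are compared between libraries within a transcript, and the order of transcripts by CPM is not an order per length.

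Each mRNA library was made from 10 whole animals, taken 4 days after they hatched. The 3 hywi knockdown libraries were made from offspring of the hywi RNAi-1 line that carried the transgene, a hywi hairpin expressed in epithelial stem cells, while the libraries hold RNA of all cells of the animals. The 3 wild-type sibling libraries were made from offspring of the same line without the transgene. Small RNA was sequenced from Hywi and Hyli immunoprecipitates of 225 animals, with 1 library for each protein in colchicine-treated and in wild-type animals. Capless RNA was sequenced from 20 animals of each kind, in 1 degradome library each, by joining an adapter to the 5' ends of poly(A) RNA without removing caps. The treated animals were epithelialized, that is, depleted of interstitial cells, and came from a cnnos1::GFP line, so treatment and transgenic line cannot be told apart. Fewer cells of a type and less RNA per cell cannot be told apart in any of these whole-animal libraries. The labels do not say that replicates came from separate cultures, so p-values measure the spread between these libraries, which may be technical.

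The mRNA libraries held 22.2 to 27.6 M estimated counts, where M stands for 1000000. The Hywi antisense column held 16.6 M counts in colchicine-treated and 19.5 M in wild-type animals, and the Hyli sense column 6.68 M and 28.8 M. The degradome libraries held 176897 counts in colchicine-treated and 765341 counts in wild-type animals, so that 3 counts, the floor used here, stood for 17.0 and 3.92 CPM. Whether hywi mRNA fell in the knockdown was not analysed here, since no name is paired with that gene. Intervals and floors cover counting error only.

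Abundant mRNAs with these piRNAs were few. At least 20 CPM of mRNA in wild-type siblings was reached by 6662 transcripts, and 34 of them had at least 10 CPM in all 4 piRNA columns. Of these 34, 16 differed by 4-fold or more between the 2 kinds of animal and 18 were kept, which is 0.270% of the 6662. Seen from the piRNA side, 1125 transcripts met the piRNA conditions and 1107 of them fell under the mRNA minimum, so the 18 were 1.60% of the piRNA-bearing set. The typical abundant mRNA had little Hywi antisense RNA, with a median of 0.390 CPM in colchicine-treated and 0.0899 CPM in wild-type animals.

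The limits of mRNA and of fold separate close neighbours. Just inside the mRNA minimum lay t11417aep with a mean of 21.2 CPM and t13835aep with 21.6 CPM, and just outside lay t21795aep with 19.5 CPM and t5874aep with 19.0 CPM. For the smallest piRNA value, t17024aep was inside with 11.5 CPM and t31420aep outside with 6.77 CPM. For the fold limit, t13835aep was inside with 3.47-fold and t11405aep outside with 4.28-fold.

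Hywi antisense counts, which were used for the choice and are given as a description, ranged from 11.5 to 5478 CPM in colchicine-treated animals and from 15.9 to 9407 CPM in wild-type animals, with medians of 694 and 670 CPM. Hyli sense counts ranged from 14.4 to 5075 CPM in colchicine-treated animals and from 13.8 to 7712 CPM in wild-type animals, with medians of 312 and 430 CPM. The difference between the 2 kinds of animal was held under 4-fold by the choice, so its size is a description as well. For Hywi antisense, 14 of 18 differed by less than 2-fold, for Hyli sense 10 of 18 did, and for both at once 7 of 18 did.

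The member ranked first was t5857aep, which had 1532 CPM of Hywi antisense and 5075 CPM of Hyli sense RNA in colchicine-treated animals, against 1901 and 7712 CPM in wild-type animals. The transcript t30140aep, ranked next, was nearly level for Hywi antisense, with 947.0 CPM in colchicine-treated and 947.8 CPM in wild-type animals, while its Hyli sense RNA was 809.8 and 1834 CPM. Rank 3 was held by t22522aep, with 728.5 and 786 CPM of Hywi antisense and 697 and 1791 CPM of Hyli sense RNA in colchicine-treated and wild-type animals. These 3 and t35514aep, at rank 4, had at least 659 CPM in every one of the 4 columns. At the other end, t17024aep had between 11.5 and 15.9 CPM in all 4 columns, and t11417aep had 61.9 CPM of Hywi antisense and 14.4 CPM of Hyli sense RNA in colchicine-treated animals, against 144 and 26.4 CPM in wild-type animals.

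**Figure D1:**
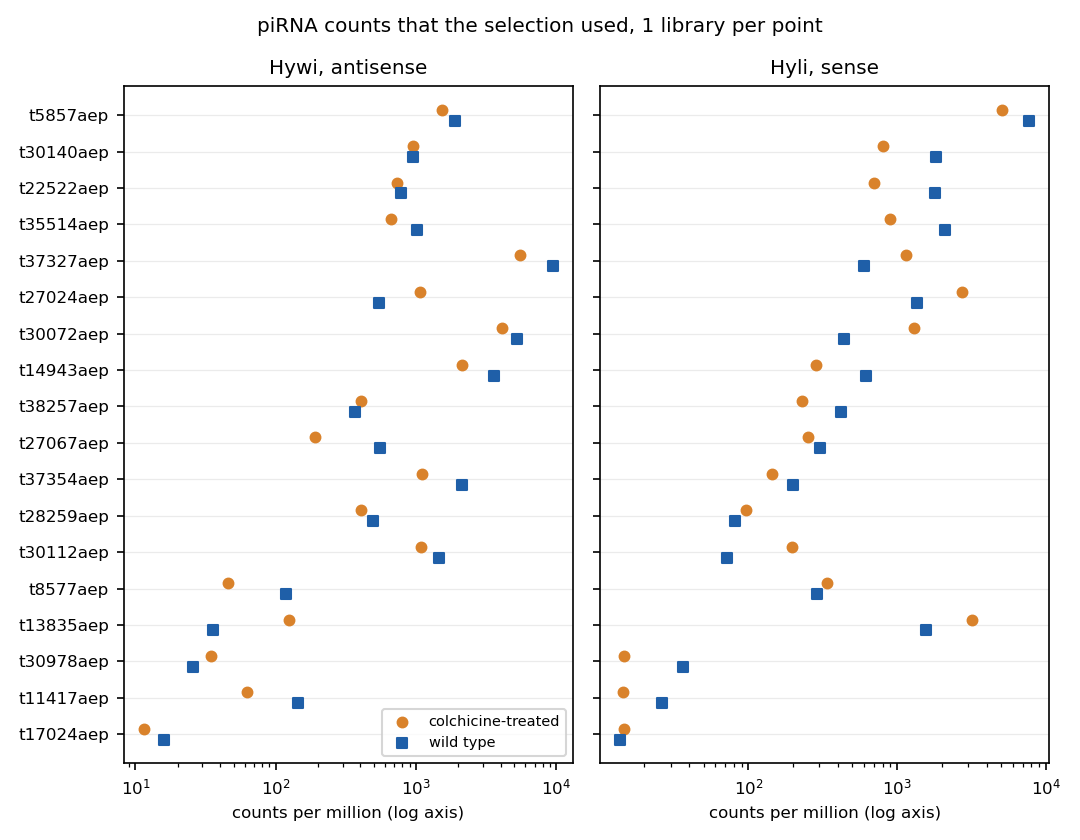
Hywi antisense (left) and Hyli sense (right) CPM of the 18 transcripts on log axes, in the order of their smallest value from top to bottom. Circles are colchicine-treated and squares wild-type animals, 1 library each, and the 2 differ by less than 4-fold in every row because the selection required it.

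The 2 proteins did not hold their shares in one proportion across members. Set as a ratio of CPM, Hyli sense over Hywi antisense ran from 0.132 to 25.8 in colchicine-treated and from 0.0498 to 44.0 in wild-type animals. Hyli sense was the larger in both kinds of animal for 5 members and the smaller in both for 7. The extreme on the Hyli side was t13835aep, with 3204 CPM of Hyli sense against 124 CPM of Hywi antisense RNA in colchicine-treated animals, and 1573 against 35.8 CPM in wild-type animals. The lowest ratio in colchicine-treated animals was that of t37354aep, with 144 CPM of Hyli sense against 1096 CPM of Hywi antisense RNA. The lowest in wild-type animals was that of t30112aep, with 72.0 CPM of Hyli sense against 1446 CPM of Hywi antisense RNA. Both columns of a protein are scaled apart, so these ratios rank members and do not count molecules.

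The opposite strands, Hywi sense and Hyli antisense, were not used for the choice. On raw counts, the median member had 98.9% of its Hywi counts antisense in colchicine-treated animals and 97.8% in wild-type animals, and 17 of 18 were mainly antisense in each. The exception was t27024aep, which had 17743 antisense and 119756 sense Hywi counts in colchicine-treated animals, against 10509 and 195395 in wild-type animals. Its antisense share of Hywi counts was 12.9% in colchicine-treated animals (95% Wilson interval 12.7 to 13.1%) and 5.10% in wild-type animals (5.01 to 5.20%). This 1 transcript held 91.0% of all Hywi sense counts of the members in colchicine-treated animals and 90.1% in wild-type animals. Summed over members the Hywi antisense share was 71.8% (71.6 to 71.9%) in colchicine-treated animals and 72.0% (71.9 to 72.1%) in wild-type animals, and without t27024aep it was 96.4% and 96.2%. The lowest shares of the remaining members were those of t17024aep, 87.1% in colchicine-treated and 88.4% in wild-type animals. The highest were 99.8% for t27067aep in colchicine-treated animals and 99.9% for t11417aep in wild-type animals.

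As CPM, the Hywi sense RNA of the members was lower in colchicine-treated animals for 13 of 18, with a median log2 ratio of -0.98. It was 25.7 CPM in colchicine-treated and 345 CPM in wild-type animals for t37354aep, and 30.3 and 288 CPM for t5857aep. The values of t27024aep were 43989 and 69505 CPM, far above those of every other member in both kinds of animal. Hyli antisense RNA was closer between the 2, with a median log2 ratio of 0.14 and 14 of 18 members differing by less than 2-fold. Its values were 5050 CPM in colchicine-treated and 5654 CPM in wild-type animals for t37327aep, and 504 and 1028 CPM for t37354aep. The 1107 transcripts with the same piRNA conditions and less mRNA held 3.92% of all Hywi sense counts in colchicine-treated and 12.1% in wild-type animals. Their part of all Hyli antisense counts was 13.1% and 12.6%. The share of these 1107 that were lower is not given here, so neither pattern is read as particular to the members.

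Hyli counts were spread over both strands, and the spread differed among members. The antisense share of Hyli counts had a median of 33.9% in colchicine-treated and 8.84% in wild-type animals. It was higher in colchicine-treated animals for 17 of 18 members, the exception being t30072aep with 36.7% (35.9 to 37.6%) in colchicine-treated and 45.3% (44.7 to 46.0%) in wild-type animals. Among the 1107 transcripts with the same piRNA conditions and less mRNA, the share was higher in colchicine-treated animals for 89.7%, and over all transcripts it was 48.0% of Hyli counts in colchicine-treated and 28.9% in wild-type animals. Each share comes from 1 library, so no test was made.

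Individual members lay far apart on this measure. Over 50% of Hyli counts were antisense for 6 of 18 members in colchicine-treated and for 3 in wild-type animals. Transcript t37327aep was mainly antisense in the Hyli immunoprecipitates as well, with 80.1% (79.7 to 80.5%) in colchicine-treated and 79.3% (79.0 to 79.5%) in wild-type animals. Transcript t27024aep, mainly sense in the Hywi immunoprecipitates, was mainly antisense here, with 66.2% in colchicine-treated and 60.4% in wild-type animals. Transcript t13835aep was almost wholly sense, with 0.501% (0.416 to 0.606%) antisense in colchicine-treated and 0.0633% (0.0446 to 0.0919%) in wild-type animals. The largest gain was that of t11417aep, with 58.2% (51.8 to 64.4%) in colchicine-treated and 11.3% (9.38 to 13.6%) in wild-type animals, on 134 and 96.9 antisense counts. Members with more Hywi antisense CPM also had more Hyli antisense CPM, with a Spearman correlation of 0.94 across the 18 members in colchicine-treated and 0.87 in wild-type animals. Over the 1107 transcripts with the same piRNA conditions and less mRNA it was 0.77 and 0.76, and over the 6662 abundant ones 0.48 and 0.48. The points of each correlation share 2 libraries and the same transcripts, whose lengths enter both values, and the value is a description.

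**Figure D2:**
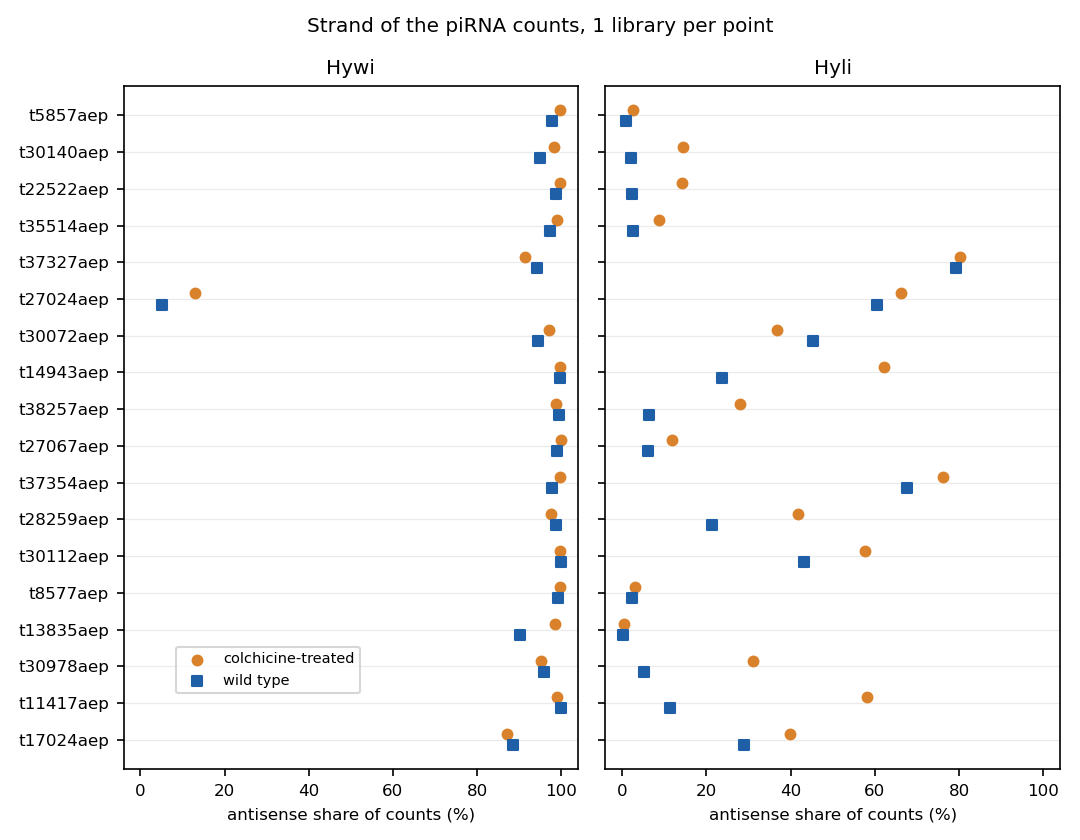
Antisense share of raw Hywi (left) and Hyli (right) counts in percent for each of the 18 transcripts, with circles for colchicine-treated and squares for wild-type animals, 1 library each. Hywi shares lie above 87% except for t27024aep, while Hyli shares run from under 1% to 80.1% and lie further right in colchicine-treated animals for 17 transcripts.

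Many counts of the members were not whole numbers, as when a read that fits several transcripts is divided among them. In Hywi antisense and Hyli antisense columns all 18 members had such counts in both kinds of animal, in Hyli sense columns 9 did in colchicine-treated and 11 in wild-type animals, and in each mRNA library 16 to 18 did. Members that are near-copies of other transcripts, or of each other, therefore cannot be separated from them with certainty.

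Capless RNA was not a condition of the choice, but it is not free of it. In wild-type animals, degradome CPM was close to a fixed multiple of Hyli sense CPM, one of the columns used to choose, over nearly all transcripts that met the piRNA conditions, as given below. Whether the 2 wild-type libraries shared reads before the counts were made was not tested. The levels, ranks and ratios of capless RNA that follow are therefore descriptions of the members. In colchicine-treated animals 17 of 18 had degradome counts, up to 550 for t27024aep, and 15 were over the floor of 3 counts. In wild-type animals all 18 had counts, from 2 for t11417aep to 3180 for t27024aep, and 17 were over the floor. The floor was passed by 24.1% of the 6662 abundant transcripts in colchicine-treated and by 31.8% in wild-type animals. Ranked by capless CPM in wild-type animals among these 6662, the members had a median rank of 53.5, and 13 of them were among the first 100. The members together held 1.08% of degradome counts in colchicine-treated animals (95% Wilson interval 1.03 to 1.13%) and 1.34% in wild-type animals (1.32 to 1.37%).

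Capless RNA was also set against the mRNA of the same transcripts. The log2 ratio of wild-type degradome to mean wild-type sibling mRNA, taken as log2(CPM + 1) in each, had a median of 2.81 over the 18 members, against -4.51 over the 6662 abundant transcripts, which include the members. Capless CPM exceeded mRNA CPM for 14 of 18 members, and for 1.82% of the abundant transcripts. The 1107 transcripts with the same piRNA conditions and less mRNA had a median of 4.86. The mRNA mean that separates these 1107 from the members also divides the ratio, so this difference follows in part from the choice. At the top was t5857aep, with 3684 CPM of capless RNA and 66.7 ± 17.9 CPM of mRNA (SD, n = 3) in wild-type animals, followed by t35514aep with 990 CPM of capless RNA and 22.5 ± 4.50 CPM of mRNA, and t13835aep with 819 CPM of capless RNA and 21.6 ± 1.22 CPM of mRNA. At the bottom were t11417aep, with 2.61 CPM of capless RNA and 21.2 ± 4.72 CPM of mRNA, and t17024aep, with 43.7 CPM of capless RNA and 66.0 ± 6.24 CPM of mRNA. The degradome animals and the newly hatched mRNA animals were different animals, and the degradome has no replicate, so these ratios carry no test.

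The capless RNA of the members followed their Hyli sense RNA, less evenly in colchicine-treated than in wild-type animals. In colchicine-treated animals the Spearman correlation across the 18 members was 0.78 between degradome and Hyli sense CPM, 0.44 between degradome and Hywi antisense CPM, and 0.33 between degradome and wild-type sibling mRNA CPM. In wild-type animals the same correlations were 0.95, 0.39 and 0.33. Degradome and Hyli sense counts are sense reads of the same transcripts, and the correlations are descriptions.

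The ratio of degradome CPM to Hyli sense CPM had a median of 0.706 in colchicine-treated animals, and 6 of 18 members were within 2-fold of it. For the members at ranks 1 to 4 it was 0.230, 0.925, 0.543 and 2.34. In wild-type animals the median was 0.531, and 15 of 18 members were within 2-fold of it. Here the members at ranks 1 to 4 had ratios of 0.478, 0.505, 0.479 and 0.469, and those outside were t11417aep with 0.0990, t27024aep with 3.04 and t17024aep with 3.17. Among the 1107 transcripts with less mRNA the medians were 0.154 in colchicine-treated and 0.534 in wild-type animals, with 24.1% and 94.8% within 2-fold of them. The wild-type degradome and Hyli sense columns of these transcripts are therefore not read here as separate measures, and sharing of reads between them was not tested. The median member had 55.3 degradome counts in colchicine-treated animals and 201 in wild-type animals, and the part of depth in this contrast was not tested.

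**Figure D3:**
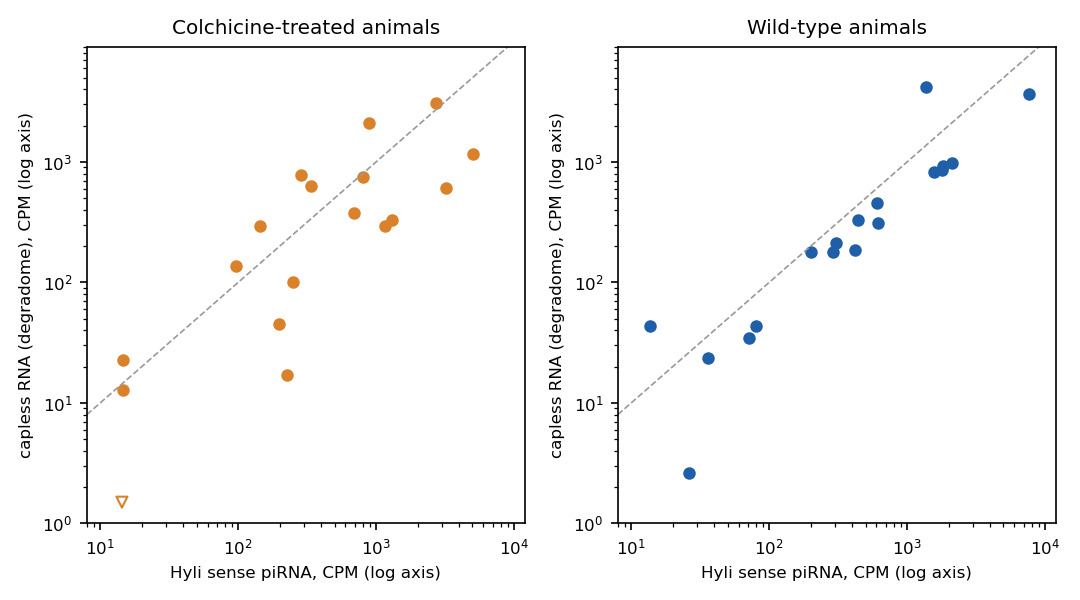
Capless RNA (vertical) against Hyli sense piRNA (horizontal), both in CPM on log axes, for the 18 transcripts in colchicine-treated (left) and wild-type animals (right), 1 library per axis. The dashed line marks equal values and the open triangle at the lower edge t11417aep, which had 0 degradome counts in colchicine-treated animals; 15 of 18 wild-type points lie within 2-fold of a ratio of 0.531.

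Between the 2 kinds of animal, the capless RNA of most members stayed within 4-fold. The background was broad: of 7975 transcripts with at least 10 CPM in either degradome library, 33.3% were higher in colchicine-treated animals by 4-fold or more on the log2(CPM + 1) scale, and 33.6% were lower by as much. Of the 17 members that reached this minimum, 0 were that much higher and 1 was that much lower. Of the 1107 transcripts with the same piRNA conditions and less mRNA, 1060 reached it, and 7.92% of these were that much higher and 49.5% that much lower. Low counts widen such ratios, and the part of depth was not tested here either. There is no replicate and therefore no test.

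The member that was lower was t38257aep, with 17.0 CPM of capless RNA in colchicine-treated and 185 CPM in wild-type animals. These are 3 and 141.5 counts, a ratio of CPM of 0.0917 with an exact counting interval of 0.0186 to 0.273. The next lowest were t17024aep, with 12.8 CPM in colchicine-treated and 43.7 CPM in wild-type animals, and t5857aep, with 1167 and 3684 CPM. The treated value of t17024aep lies under the floor, and the counting interval of its ratio, 0.0305 to 1.03, includes 1. On the high side, t8577aep had 636 CPM in colchicine-treated and 180 CPM in wild-type animals, with a counting interval of the ratio of 2.71 to 4.54. Transcript t28259aep had 136 and 43.8 CPM with an interval of 1.73 to 5.30, and t14943aep had 780 and 312 CPM with an interval of 2.02 to 3.11.

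These ratios depend on what else is in the library. Transcripts t22393aep and t14592aep, which are not members, held 0.0251% of colchicine-treated and 38.2% of wild-type degradome counts. With both left out of the totals the members' median log2 ratio was -0.998 in place of -0.305, 5 in place of 7 of the 17 members were higher in colchicine-treated animals, and 3 in place of 1 were lower by 4-fold or more. The change of totals moves every transcript: over the 7975 the median was -0.56 in place of 0.11, with 45.6% higher and 38.1% lower by 4-fold or more.

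The mRNA comparison asked whether these transcripts differ when hywi is knocked down in epithelial stem cells. The mRNA of most members was somewhat more abundant in knockdown libraries, but no member passed the test. The log2 fold change, knockdown over wild-type sibling, lay above 0 for 16 of 18 members, with a median of 0.23, a highest value of 0.33 and a lowest of -0.11. Over all 19683 transcripts tested the median was 0.02, over the 6662 abundant ones -0.07, and over the 909 of 1107 low-mRNA transcripts with the same piRNA conditions that passed the filter on low counts it was 0.24. By the quasi-likelihood test of edgeR, with p-values adjusted over the 19683 transcripts after Benjamini and Hochberg, 0 of 18 members were higher and 0 lower at an adjusted p under 0.05, where the share called over all transcripts was 0% in each direction. The smallest adjusted p among members was 0.875. At an unadjusted p under 0.05, 1 member was higher and 0 were lower, against 2.93% and 0.716% of all transcripts, and DESeq2 called 0 members in either direction. Of the 909 low-mRNA transcripts, 68 were higher and 0 lower at that unadjusted level in the same edgeR fit.

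The replicate numbers shared by the 2 groups were taken as pairs, and with the number as a block edgeR called 231 transcripts higher and 18 lower (1.17% and 0.0914% of those tested). Again 0 of 18 members passed in either direction, and their smallest adjusted p was 0.208, that of t37354aep. Unadjusted p-values were under 0.05 for 9 members, all higher in the knockdown, against 8.51% of all transcripts that were higher and 5.24% that were lower at that level. Of the 909 tested transcripts with the same piRNA conditions and less mRNA, 179 were higher and 1 was lower at that level in this fit. Without replicate pair 2, 1 member, t27024aep, passed in the blocked fit, with a log2 fold change of 0.49 and an adjusted p of 0.0436. Over all transcripts that fit called 357 higher and 105 lower, more than the 231 and 18 of the blocked fit with every pair. The wild-type sibling libraries were used to choose the members, with a mean of at least 20 CPM, so their levels are not free of the choice. With the same minimum set on the knockdown mean instead, 27 transcripts met the conditions, all 18 members among them, with a median log2 fold change of 0.27 and again 0 calls.

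The 6 libraries were not equally high. The median member had 48.4, 31.7 and 36.7 CPM in knockdown libraries 1, 2 and 3, against 39.8, 28.6 and 23.4 CPM in wild-type sibling libraries 1, 2 and 3. Knockdown library 1 was the highest of the 6 for 13 members and wild-type sibling library 3 the lowest for 14. The same 2 libraries were highest for 58.5% and lowest for 59.5% of the 909 tested transcripts with the same piRNA conditions and less mRNA. Over all tested transcripts the shares were 39.8% and 39.2%, and over the 6662 abundant ones 32.7% and 33.3%. All 3 knockdown libraries lay above all 3 wild-type siblings for 2 members, t37327aep and t8577aep, beside 7.08% of all tested transcripts, and 0 members had all 3 below, beside 2.01%. The groups of the other 16 members overlapped. Of the 909 tested transcripts with the same piRNA conditions and less mRNA, 156 had all 3 knockdown libraries above and 1 had all 3 below.

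**Figure D4:**
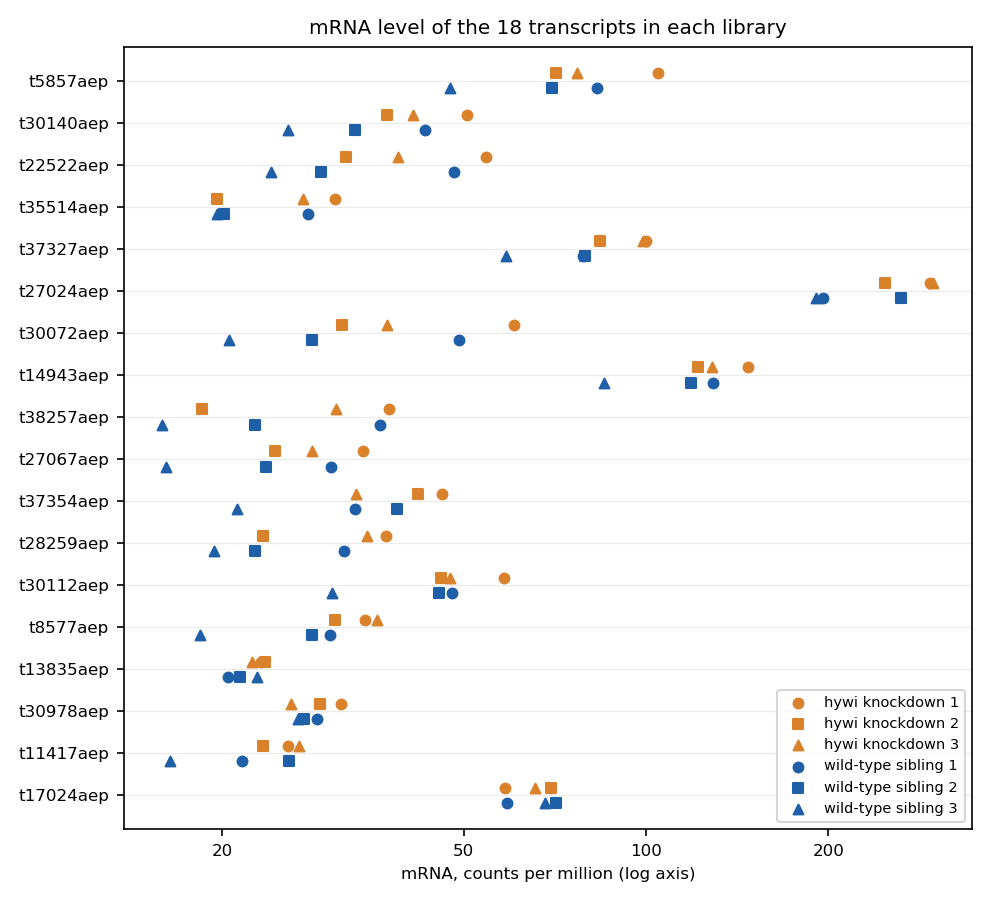
mRNA level in CPM (log axis) of the 18 transcripts in each of 3 hywi knockdown libraries (orange, upper row of each transcript) and 3 wild-type sibling libraries (blue, lower row), with the marker shape giving the replicate number. Knockdown 1 is the rightmost point of 13 transcripts and wild-type sibling 3 the leftmost of 14, and the groups are fully apart for t37327aep and t8577aep.

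Compared within replicate numbers, the knockdown library was the higher for 17 members in pair 1, 13 in pair 2 and 15 in pair 3, and for 11 members in all 3 pairs, against 29.4% of all tested transcripts. The median log2 difference of the members on CPM was 0.21, 0.05 and 0.69 in pairs 1, 2 and 3. The 909 tested transcripts with the same piRNA conditions and less mRNA had the same order of pairs, with medians of 0.29, 0.13 and 0.59, and 51.0% of them were higher in all 3 pairs. Over all tested transcripts the medians were 0.09, 0.01 and 0.16, and over the 6662 abundant ones 0.02, -0.01 and 0.01. The larger difference in pair 3 was thus shared with the transcripts of low mRNA. In the edgeR fit the members' median log2 fold change was 0.14 without knockdown 1 and 0.08 without wild-type sibling 3.

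Of the 2 members with separate groups, t37327aep had 100.1, 83.9 and 98.7 CPM in knockdown libraries, against 78.6, 79.3 and 58.8 CPM in wild-type siblings. The edgeR fit gave a log2 fold change of 0.31 (standard error 0.12), with an adjusted p of 0.875. This was the single member with an unadjusted p under 0.05. Transcript t8577aep had 34.4, 30.7 and 36.0 CPM in knockdown libraries, against 30.1, 28.1 and 18.3 CPM in wild-type siblings, so that its groups were parted by less than 1 CPM.

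The most abundant member, t27024aep, had 295, 248 and 298 CPM in knockdown libraries, against 196, 263 and 190.5 CPM in wild-type siblings. Its knockdown library 2 lay below wild-type sibling 2, and its groups overlapped. The next most abundant, t14943aep, had 147, 122 and 128 CPM in knockdown libraries, against 129, 118 and 85.1 CPM in wild-type siblings. Here wild-type sibling 3 was well below the other 5 libraries.

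The same shape recurred in the highest log2 fold changes. Transcript t30072aep, the highest with 0.33 and a standard error of 0.30, had 60.5, 31.5 and 37.4 CPM in knockdown libraries, against 49.0, 28.1 and 20.5 CPM in wild-type siblings. Transcript t37354aep, with 0.31 and a standard error of 0.20, had 46.1, 42.0 and 33.2 CPM in knockdown libraries, against 33.1, 38.8 and 21.1 CPM in wild-type siblings. Libraries 1 of both groups were high for t30072aep, and each knockdown library was above the wild-type sibling of its number for both transcripts.

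The 4 members ranked first by their smallest piRNA value overlapped between groups as well. Transcript t5857aep had 104.6, 71.1 and 77.0 CPM in knockdown libraries, against 82.9, 69.9 and 47.5 CPM in wild-type siblings. For t30140aep the values were 50.7, 37.4 and 41.2 CPM in knockdown libraries and 43.2, 33.1 and 25.7 CPM in wild-type siblings. For t22522aep they were 54.4, 32.0 and 39.0 CPM in knockdown libraries and 48.2, 29.1 and 24.0 CPM in wild-type siblings. In these 3, wild-type sibling 3 was again the lowest library and pair 2 had the smallest difference. Transcript t35514aep had 30.7, 19.6 and 27.1 CPM in knockdown libraries, against 27.6, 20.1 and 19.6 CPM in wild-type siblings, and was below its wild-type sibling in pair 2.

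**Figure D5:**
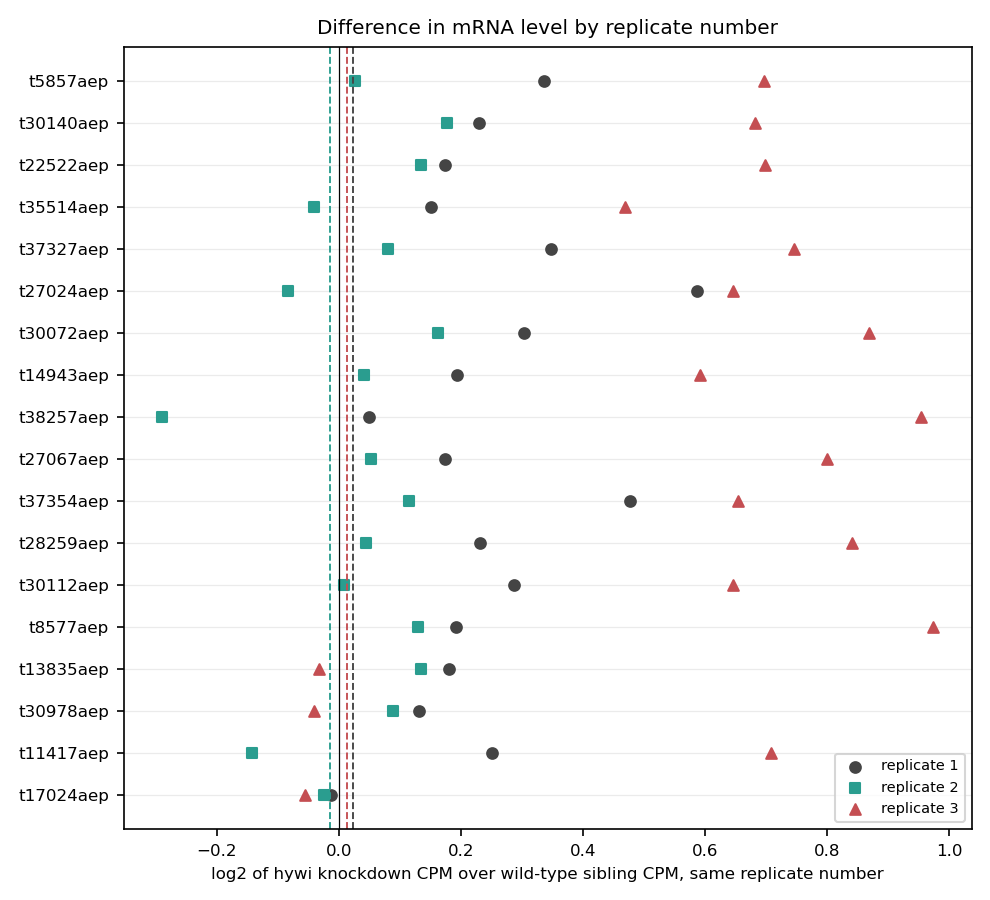
Log2 of hywi knockdown over wild-type sibling CPM for each of the 18 transcripts, with 1 point for each replicate number; dashed lines mark the medians of 6662 abundant transcripts in the same colours (0.02, -0.01 and 0.01). Replicate 3 points lie furthest right for 15 transcripts and to the left of 0 for t13835aep, t30978aep and t17024aep.

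The members with the lowest fold changes were nearly level across all 6 libraries. Transcript t13835aep had 23.1, 23.5 and 22.3 CPM in knockdown libraries, against 20.4, 21.4 and 22.8 CPM in wild-type siblings, with a log2 fold change of 0.01, or -0.02 with DESeq2's size factors in edgeR, and a standard error of 0.12. Transcript t30978aep had 31.4, 28.9 and 25.9 CPM in knockdown libraries, against 28.7, 27.2 and 26.7 CPM in wild-type siblings, with a log2 fold change of -0.02, or 0.07 when scaled by library totals. Transcript t17024aep had 58.5, 69.8 and 65.6 CPM in knockdown libraries, against 59.0, 71.0 and 68.2 CPM in wild-type siblings, with a log2 fold change of -0.11 and a standard error of 0.14. These 3 were the members in which wild-type sibling 3 was not below knockdown 3.

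The other 5 members lay between these. Their mean mRNA was 25.3 to 50.6 CPM in knockdown libraries and 21.2 to 41.2 CPM in wild-type siblings. Transcript t38257aep, which had the lowest capless RNA in colchicine-treated relative to wild-type animals, was the least even of them. It had 37.6, 18.5 and 30.8 CPM in knockdown libraries, against 36.3, 22.6 and 15.9 CPM in wild-type siblings, with differences of 0.05, -0.29 and 0.95 on the log2 scale in pairs 1, 2 and 3. Transcript t11417aep had 25.7, 23.4 and 26.7 CPM in knockdown libraries, against 21.6, 25.8 and 16.4 CPM in wild-type siblings. Transcript t28259aep had 37.3, 23.4 and 34.6 CPM in knockdown libraries, against 31.7, 22.7 and 19.3 CPM in wild-type siblings. The groups of all 3 overlapped.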

How the data were processed

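The submitters' processing notes name Trimmomatic 0.33, RSEM 1.2.31 and Bowtie 1.1.2 for mRNA, and cutadapt, RSEM 1.2.31 and Bowtie for small RNA and degradome libraries. The authors deposited estimated counts per transcript, not normalized; sense and antisense small RNA mapping are apart and degradome mapping is sense, per the file headers. Mismatches allowed and the length filter are not given in the sources used here. All 16 value columns were matched to samples by name, and 0 of 38747 transcript names matched the reference gene table.

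Members and lists were chosen with earlier results of these data known. mRNA counts were rounded, filtered with filterByExpr, scaled by TMM and tested two-sided with edgeR 4.0.16 (R 4.3.3), quasi-likelihood test with Benjamini-Hochberg adjustment at 0.05; all 18 members passed the filter. Standard errors are the absolute log2 fold change over the square root of F. DESeq2 1.42.0 was an alternative. CPM used library or column totals, with a pseudocount of 1 CPM for log2 degradome ratios (Python 3.11.15, pandas 2.3.3, scipy 1.17.1). Pairing was checked on deviations from group means: their correlation was 0.62, 0.27 and 0.30 for libraries sharing a number (each over 0.1) and -0.43 to 0.20 for others. On this ground alone, replicate numbers were treated as pairs. Knockdown 2 with wild-type sibling 3 (0.20) and knockdown 3 with wild-type sibling 2 (0.15) were over 0.1 too. The check therefore sets only number 1 clearly apart. Replicates differed by more than sampling noise. On simulated data with 200 of 19722 and of 19775 transcripts changed by 2 (log2), edgeR recovered 200 without and 200 with the block, with 9 and 10 false calls. The members' log2 fold changes were at most 0.33, and recovery of changes of that size was not tested.

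The transcripts named were the first 4 and last 2 members by rank and those next outside each limit, the 2 with most mRNA, the 3 highest and lowest in the knockdown fit and in degradome ratio (at least 10 counts in either library), the 3 highest and 2 lowest for capless RNA over mRNA, and the extremes of antisense share; t30112aep, t31420aep, t11405aep, t22393aep and t14592aep were added after values were seen.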

Additional observations from a re-analysis of the deposited data

Results flagged for a closer look

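The antisense share of the members' summed counts moved in opposite directions for the 2 proteins between colchicine-treated and wild-type animals, with a change of -0.293 percentage points in the Hywi share and of 19.4 in the Hyli share. The difference was not tested, as each kind of animal had a single library per protein. The Hywi direction rests on t27024aep: without it the Hywi share was 96.4% in colchicine-treated and 96.2% in wild-type animals, so the sign turned, while the Hyli share was 33.3% and 16.7%. Member by member, the Hywi share was higher in colchicine-treated animals for 10 of 18 and the Hyli share for 17 of 18. Among the 1107 transcripts with the same piRNA conditions and less mRNA these were 81.3% and 89.7%. Over the counts of all transcripts the Hywi share was 85.9% in colchicine-treated and 87.4% in wild-type animals. The Hyli share over all transcripts was 48.0% and 28.9%, so the opposite directions were not particular to the members.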

How the results depend on the processing

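No alternative made a member pass at an adjusted p under 0.05 except the paired fit without replicate 2, so the count of members higher ran from 0 to 1 in fits that left out libraries and the count lower stayed 0. Over all transcripts, edgeR called 0 higher and 0 lower without the replicate block, and DESeq2 1 and 1. The replicate block gave 231 higher and 18 lower, and DESeq2 with it 140 and 46. Chosen after seeing the data, the replicate block gave 247 and 37 with RLE size factors, 123 and 2 with library totals, and 333 and 55 with no low-count filter. Fits that left out 1 library called 0 and 0 without the block, and with the replicate block 219, 357 and 365 higher and 16, 105 and 52 lower without pairs 1, 2 and 3. The members' median log2 fold change stayed above 0 in every fit, from 0.08 to 0.35.

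Of 324 single-member values under other fits, 18 turned direction, none of them past the threshold. Transcript t13835aep was at -0.040 in DESeq2, -0.034 in DESeq2 with the replicate block, -0.022 with RLE size factors and -0.016 with these and the block, between -0.066 and 0.088 without 1 library, and at -0.020, -0.055 and 0.10 with the block and without pairs 1, 2 and 3. Transcript t30978aep was at 0.065 with library totals and 0.062 with these and the block, between -0.056 and 0.026 without 1 library and between -0.081 and 0.052 with the block and without 1 pair. Transcript t38257aep ran from -0.076 to 0.46 without 1 library. With libraries or pairs left out, t38257aep ran from -0.17 to 0.46, t35514aep from -0.00076 to 0.26 and t11417aep from -0.0069 to 0.35. The cause of these turns was not tested.

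An mRNA minimum of 50 CPM left 5 members and a fold limit of 2 left 7. Members at least 4-fold lower in the colchicine-treated degradome numbered 3 with median-ratio scaling, 3 without t22393aep and t14592aep in the totals, 5 with the minimum on the knockdown mean and 0 with the minimum of 50 CPM. The median log2 ratio of capless RNA to mRNA was 2.85 and 2.63 with pseudocounts of 0.1 and 5 CPM, 3.04 with the minimum on the knockdown mean, 2.63 with 50 CPM, 2.63 with the fold limit of 2, 3.15 with both strands in the IP totals, and 3.50 without t22393aep and t14592aep.

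In colchicine-treated and wild-type animals, the Hyli antisense share was 39.7% and 21.4% with the minimum on the knockdown mean, 53.4% and 31.1% with 50 CPM, 53.3% and 32.2% with the fold limit of 2, and 33.3% and 16.7% without t27024aep. The Hywi share was 75.5% and 73.9%, 56.9% and 59.1%, 56.3% and 58.1%, and 96.4% and 96.2% in the same order, and 71.9% in wild-type animals with both strands in the IP totals. The sets with 50 CPM and with the fold limit of 2 kept t27024aep and t37327aep, which weigh more in them. The part of either transcript in these shifts was not tested. Depth limits the colchicine-treated degradome most, where 3 members were at or under 3 counts.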
